A study of Mus musculus with 6 samples.

Results

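The interferon regulatory factors are a family of transcription factors, and 8 of their genes were followed here among the 11162 genes listed: Irf1, Irf2, Irf3, Irf4, Irf5, Irf7, Irf8 and Irf9. They were chosen by name, by matching the gene symbol, and all 8 were listed. RNA had been sequenced from 6 samples of naive CD8 T cells from mouse spleen, 3 with bright (GFP-hi) and 3 with dim (GFP-lo) fluorescence of the Nur77-GFP reporter. In this reporter, the transgene Tg(Nr4a1-EGFP)GY139Gsat, green fluorescent protein is made from Nr4a1 regulatory sequence, so brightness reports recent signalling through the T-cell receptor. Both populations carried this transgene and were sorted as CD8+, CD44lo, CD62Lhi, Qa2hi and OT-I, and the labels give the reporter gate as the difference between them. OT-I is a transgenic T-cell receptor of one specificity, listed among the sorting markers and not in the genotype. Replicate numbers below name libraries and pair none. No age or treatment was given, and nothing said whether the samples of a population came from separate mice, so p-values measure the spread between these samples, which may be technical.

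Each member of the family has a conserved DNA-binding domain that reads repeats of GAAA, found in interferon-stimulated response elements. Irf3, Irf5 and Irf7 sit latent in the cytoplasm until kinases downstream of nucleic acid sensors phosphorylate them, whereas Irf9 is the DNA-binding part of the complex that carries the type I interferon signal. Irf1 is itself induced by interferon gamma and activates genes that Irf2 can repress. Irf4 and Irf8 bind DNA weakly alone and act with partners such as BATF and JUN proteins. In T cells Irf4 is induced by the T-cell receptor in proportion to signal strength, and in CD8 T cells it is known for sustaining the expansion and metabolism of activated cells.

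Values were RPKM, reads per kilobase of gene scaled to library size, as deposited, and depth recovered from them was 26170000 to 35940000 reads per library. The transcript behind the reporter did not separate the populations, with Nr4a1 at 56.6, 90.9 and 37.0 RPKM in GFP-hi and 63.1, 84.9 and 33.8 RPKM in GFP-lo libraries. The GFP transcript was at 214, 262 and 215 RPKM in GFP-hi and at 216, 215 and 191 RPKM in GFP-lo libraries, and the groups overlapped. Genes with a mean of at least 1 RPKM over the 6 libraries were tested with limma on log2(RPKM + 1), two-sided, and a gene was called different at a Benjamini-Hochberg adjusted p under 0.05 over all 9351 genes tested. This called 230 genes higher and 139 lower in GFP-hi, 3.95% of those tested, or 199 higher and 183 lower when libraries were scaled by trimmed mean of M values. Replicate 2 of each population stood apart in heat-shock RNA, with 1100 and 1234 RPKM of Hspa1a against at most 235 RPKM in the other 4 libraries. All 10 CD8 T-cell markers checked were listed, led by Cd8b1 at 791 to 836 RPKM in GFP-hi and 785 to 839 RPKM in GFP-lo libraries, and none of the 10 was called different.

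None of the interferon regulatory factors passed the test. Of the 8 members, 5 had a mean of at least 1 RPKM and were tested, and 0 of these 5 were called by limma, against 3.95% of all genes tested (2.46% higher and 1.49% lower); 1 of the 5, Irf1, had an unadjusted p under 0.05. The remaining 3, Irf4, Irf5 and Irf8, lay under 1 RPKM and were read from a fit without a filter on low values, in which 0 of the 8 members and 3.41% of all 11162 genes were called (2.23% higher). In that fit 3 of the 8 had an unadjusted p under 0.05. Such p-values were common among all genes, since the unadjusted p of 0.040 for Irf4 became 0.24 on adjustment (limma). The share of all genes under 0.05 before adjustment was not counted, so neither count is read as a result about the members. The populations did not overlap for 4 of 8 members, against 24.9% of all genes listed. The GFP-hi libraries all lay above the GFP-lo libraries for Irf4 and Irf8, that is for 2 of 8 members against 16.0% of all genes listed. They all lay below for Irf1 and Irf2, also 2 of 8 members, against 8.95% of all genes listed. The populations overlapped for Irf3, Irf5, Irf7 and Irf9.

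By level, Irf1 was the most abundant member, at a mean of 68.1 RPKM over the 6 libraries, above 96.4% of all genes listed. Irf7 followed at 40.5 RPKM and Irf9 at 23.0 RPKM, and the ranges of these first 3 over the 6 libraries did not touch. Irf3 at 16.5 RPKM and Irf2 at 16.1 RPKM could not be ordered, since Irf3 was the higher in 3 of 6 libraries. A wide gap separated these from Irf8 at 0.804 RPKM, Irf4 at 0.757 RPKM and Irf5 at 0.686 RPKM. These last 3 had overlapping ranges and lay above only 12.5% to 13.9% of all genes listed. RPKM is scaled to gene length, so these levels can be set side by side between genes, within the limits of the length used, which is not given in the sources used here.

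**Figure D1:**
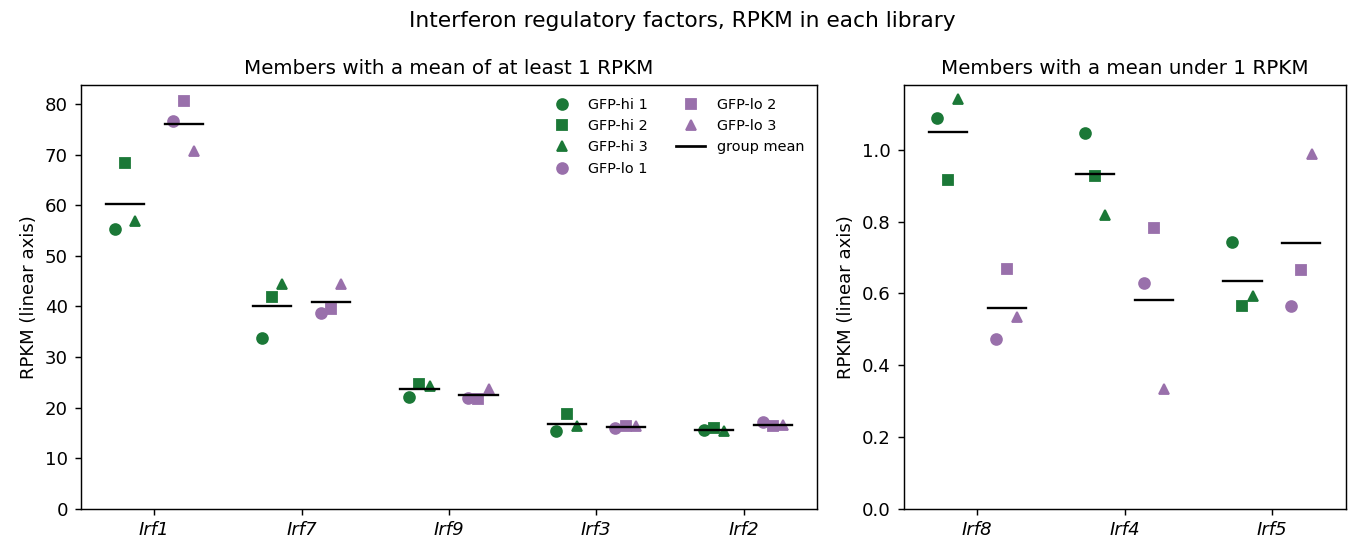
RPKM of the 8 members in each library, on linear axes that start at 0, with members of at least 1 RPKM on the left and those under 1 RPKM on the right. Points are libraries, coloured by population and shaped by replicate number, which names a library and pairs none, and black lines are means of 3. For Irf8 and Irf4 the 3 GFP-hi points lie above the 3 GFP-lo points, and for Irf1 the GFP-hi points, at most 68.4, lie below the GFP-lo points, at least 70.8.

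Irf1, the interferon gamma-induced activator, lies on chromosome 11 (chr11:53770014-53778374, GRCm38, plus strand). It had 55.3, 68.4 and 56.8 RPKM in GFP-hi and 76.8, 80.5 and 70.8 RPKM in GFP-lo libraries. Every GFP-hi library was below every GFP-lo library, with the nearest being GFP-hi replicate 2 and GFP-lo replicate 3. Mean levels were 60.2 ± 7.16 and 76.0 ± 4.89 RPKM (SD, n = 3 each), a ratio of 0.791. The log2 difference (the log2 fold change on log2(RPKM + 1), GFP-hi over GFP-lo) was -0.34 (SE, the standard error, 0.089, 95% interval -0.54 to -0.13) and missed the threshold at an adjusted p of 0.083 (limma). Without GFP-hi replicate 2, the highest of its population, the difference was -0.43 and passed (limma adjusted p = 0.019). Leaving out any other library gave differences from -0.28 to -0.39 that did not pass, with adjusted p from 0.13 to 0.24 (limma).

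Genes that respond to handling and heat moved with Irf1 in part. The mean log2(RPKM + 1) of 23 dissociation and heat-shock genes was 6.41, 7.28 and 6.48 in GFP-hi and 6.71, 7.41 and 6.73 in GFP-lo libraries. Within each population the library with the highest mean on this list, replicate 2, also had the most Irf1. The full order of libraries was the same for both in GFP-hi but not in GFP-lo. There replicate 3 had a higher list mean than replicate 1 but less Irf1, at 70.8 against 76.8 RPKM. Of these 23 genes, 19 had a negative log2 difference, with a median of -0.23 against 0.02 over all genes tested. With the list mean as a covariate the Irf1 difference was -0.28 and passed (limma adjusted p = 0.030), and without replicate 2 of either population it was -0.39 (limma adjusted p = 0.062). Because the populations do not overlap in Irf1, leaving out libraries could not have changed its sign, and the part of handling in the Irf1 difference was not tested.

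Irf2, which competes with Irf1 for the same DNA element (chr8:46739745-46847458, GRCm38, plus strand), had 15.6, 16.0 and 15.3 RPKM in GFP-hi and 17.0, 16.3 and 16.6 RPKM in GFP-lo libraries. It was the steadiest member, with an SD over the 6 libraries on the log2(RPKM + 1) scale of 0.053, smaller than that of all but 9.34% of tested genes. The GFP-hi libraries were lower without overlap, but the gap was narrow and the log2 difference was -0.08 (SE 0.051, 95% interval -0.20 to 0.03, limma adjusted p = 0.41).

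The promoter of Irf1 is printed with those of Irf4 and Irf8 because their mean levels differed most in ratio between the populations. Each sequence is the 250 bases before the first annotated start, from RefSeq on GRCm38.p6, 5′ to 3′ on the gene's strand, with capitals marking matches to the gamma-activated site TTCNNNGAA, a palindromic element found in promoters that respond to interferon gamma. Both strands were searched.
Irf1 (chr11:53769764-53770013): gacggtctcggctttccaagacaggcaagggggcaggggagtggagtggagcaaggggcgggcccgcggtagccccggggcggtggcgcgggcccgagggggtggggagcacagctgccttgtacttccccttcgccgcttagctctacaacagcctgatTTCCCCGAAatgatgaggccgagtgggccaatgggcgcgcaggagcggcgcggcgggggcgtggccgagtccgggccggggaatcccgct
Irf4 (chr13:30748983-30749232): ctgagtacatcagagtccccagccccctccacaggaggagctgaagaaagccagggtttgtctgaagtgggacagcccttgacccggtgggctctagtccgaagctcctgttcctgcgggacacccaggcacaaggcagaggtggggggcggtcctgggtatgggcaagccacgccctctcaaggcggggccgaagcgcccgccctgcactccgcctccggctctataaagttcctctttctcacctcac
Irf8 (chr8:120736108-120736357): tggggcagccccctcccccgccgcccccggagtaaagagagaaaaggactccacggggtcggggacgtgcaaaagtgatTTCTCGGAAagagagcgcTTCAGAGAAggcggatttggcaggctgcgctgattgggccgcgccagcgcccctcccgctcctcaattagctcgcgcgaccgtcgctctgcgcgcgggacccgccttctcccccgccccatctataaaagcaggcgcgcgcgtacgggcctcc
The Irf1 window held 1 match, TTCCCCGAA, which begins 90 bases before the start, and the Irf8 window held 2, TTCTCGGAA and TTCAGAGAA, which begin 171 and 153 bases before it. The Irf2 window held 1 as well, TTCCGAGAA. Of all 32851 promoter windows of this length in the table, 7.0% held a match. The interferon-stimulated response element, spelled GAAA, any 2 bases, GAAA, was matched among the members' windows in that of Irf2 alone, as GAAAATGAAA, against 3.0% of all windows. A narrow spelling of the kappa-B site, GGG, any 3 bases, TTCC, was also matched in Irf2 alone, against 4.6% of all windows. Other spellings of this site were not searched, so the windows without a match, that of Irf1 included, may still hold a kappa-B site. A match describes letters, not a bound site, and the Irf4 window, which held none of the 3, says only that these letters are not in it.

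Irf8 (chr8:120736358-120756694, GRCm38, plus strand), best known as a factor of dendritic cells, monocytes and B cells and also inducible in CD8 T cells, differed most among the members on the log2 scale. It had 1.09, 0.917 and 1.14 RPKM in GFP-hi and 0.474, 0.667 and 0.534 RPKM in GFP-lo libraries. All 3 GFP-hi libraries were above all 3 GFP-lo libraries. Mean levels were 1.05 ± 0.117 and 0.558 ± 0.0988 RPKM (SD, n = 3 each), a ratio of 1.88. In the unfiltered fit the log2 difference on log2(RPKM + 1), a scale that understates changes at such low levels, was 0.40 (SE 0.088, 95% interval 0.19 to 0.60, limma adjusted p = 0.059). It was 0.81 with a pseudocount of 0.1 (limma adjusted p = 0.061). It passed the threshold without a variance trend (limma adjusted p = 0.037) and with array quality weights (limma adjusted p = 0.011), at 0.40 and 0.39. Leaving out 1 library gave 0.36 to 0.45, with adjusted p from 0.066 to 0.21 (limma).

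Irf4, the member tied to T-cell receptor signal strength (chr13:30749233-30766981, GRCm38, plus strand), had 1.05, 0.928 and 0.819 RPKM in GFP-hi and 0.629, 0.782 and 0.334 RPKM in GFP-lo libraries. The populations did not overlap, but GFP-lo replicate 2 came close to GFP-hi replicate 3. Mean levels were 0.932 ± 0.115 and 0.582 ± 0.228 RPKM (SD, n = 3 each), a ratio of 1.60. With the depth recovered and a full-length transcript of 4764 bases in GENCODE M21, these values stand for about 142, 150 and 115 reads in GFP-hi and 108, 106 and 41.6 reads in GFP-lo libraries. Not all of these are whole reads, so the length used for RPKM may have been another, and the counts are approximate. The log2 difference in the unfiltered fit was 0.30 (SE 0.12, 95% interval 0.02 to 0.58, limma adjusted p = 0.24). It was 0.65 with a pseudocount of 0.1 (limma adjusted p = 0.26). One library set much of its size, since without GFP-lo replicate 3 the difference was 0.18 (limma adjusted p = 0.46).

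Irf5 (chr6:29526130-29541869, GRCm38, plus strand), which acts downstream of Toll-like receptors, had 0.743, 0.564 and 0.593 RPKM in GFP-hi and 0.564, 0.664 and 0.990 RPKM in GFP-lo libraries. The populations overlapped, and GFP-lo replicate 3 was the highest. The log2 difference was -0.08 (SE 0.11, 95% interval -0.34 to 0.17, limma adjusted p = 0.81, unfiltered fit), and it was 0.016 without that library.

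At this level reads from genes that T cells are not known to use were also counted. The median over 41 listed olfactory and vomeronasal receptor genes, which are nasal receptors, was 0.292, 0.037 and 0.419 RPKM in GFP-hi and 0.038, 0.263 and 0.583 RPKM in GFP-lo libraries. Receptor genes that were not listed have no value here, so this median may lie above that of all such genes. In the pair of libraries where it was lowest, GFP-hi replicate 2 and GFP-lo replicate 1, Irf8 was at 0.917 against 0.474 RPKM, Irf4 at 0.928 against 0.629 RPKM and Irf5 at 0.564 in both. For Irf8 and Irf4 that direction was fixed beforehand, because their populations do not overlap in any pair of libraries. The highest nasal receptor level, in GFP-lo replicate 3, came with the lowest Irf4 and the highest Irf5 of all libraries. With the nasal receptor median subtracted from every value, the differences were 0.51 for Irf8 (limma adjusted p = 0.22), 0.31 for Irf4 (limma adjusted p = 0.60) and -0.07 for Irf5 (limma adjusted p = 0.87).

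**Figure D2:**
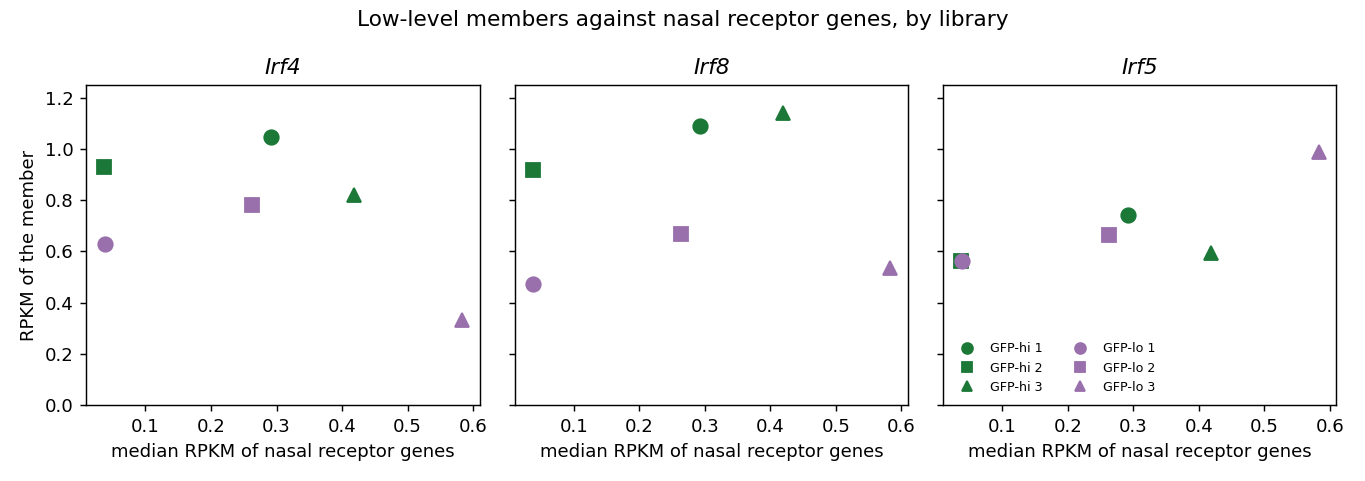
RPKM of Irf4, Irf8 and Irf5 in each library (vertical axes, from 0) against the median RPKM of 41 nasal receptor genes in the same library (horizontal axes). Green points are GFP-hi and purple points GFP-lo libraries. For Irf8 and Irf4 all GFP-hi points lie above all GFP-lo points, so this order is fixed at any nasal receptor level. Irf5 is highest where the nasal receptor level is 0.583.

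Irf4, Irf5 and Irf8 are abundant in B cells, dendritic cells and myeloid cells, so markers of these were read beside them. Of 14 B-cell markers 5 were listed, with a summed level of 15.1 to 17.2 RPKM in GFP-hi and 13.5 to 14.2 RPKM in GFP-lo libraries. Most of this was Cd79b, at 12.0, 14.1 and 13.3 RPKM against 11.1, 10.6 and 10.6 RPKM, which was not called (limma adjusted p = 0.075), while Ms4a1 stood at 0.084 to 0.506 RPKM against 0.119 to 0.597 RPKM. Of 10 dendritic cell markers 4 were listed, at a sum of 35.2 to 44.8 RPKM against 29.0 to 32.5 RPKM, nearly all from Cst3, the highest, and from Ccr9, a chemokine receptor that naive CD8 T cells also carry and that was called higher (log2 difference 0.67, limma adjusted p = 0.010). The more specific Flt3 ran from 0.086 to 0.432 RPKM against 0.018 to 0.619 RPKM, and Zbtb46 from 0.150 to 0.204 RPKM against 0.209 to 0.367 RPKM, lower in GFP-hi. Flt3 and Ms4a1 were highest in GFP-lo replicate 3, where the nasal receptor median was highest too. Both were lowest in GFP-hi replicate 2 and GFP-lo replicate 1, where that median was lowest. Zbtb46 followed this only in part, since GFP-lo replicate 1, at 0.209 RPKM, was above every GFP-hi library. Of 10 monocyte and macrophage markers Cebpb and Cd68 were listed, with a sum of 20.0 to 33.6 RPKM against 36.3 to 49.1 RPKM, led by Cebpb. No listed marker of these 3 cell types was at 0 in any library, and the part of such cells in the Irf4 and Irf8 values was not tested. In bulk samples of this kind fewer cells that express a gene and less RNA per cell cannot be told apart.

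Of 7 natural killer cell markers 3 were listed and none was called, with a sum of 307 to 322 RPKM in GFP-hi and 282 to 291 RPKM in GFP-lo libraries, nearly all Nkg7. Of 6 CD4 T-cell markers 3 were listed, led by Cd40lg, which fell (log2 difference -1.13, limma adjusted p = 0.011), whereas Izumo1r rose (1.17, limma adjusted p = 0.00087).

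Irf3, the constitutive sensor-activated factor (chr7:44997648-45002848, GRCm38, plus strand), had 15.3, 18.6 and 16.3 RPKM in GFP-hi and 15.9, 16.4 and 16.3 RPKM in GFP-lo libraries. GFP-hi replicate 2 was the highest and GFP-hi replicate 1 the lowest. The log2 difference was 0.04 (SE 0.074, 95% interval -0.13 to 0.21, limma adjusted p = 0.81).

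Irf9, which acts downstream of the type I interferon receptor (chr14:55603985-55610030, GRCm38, plus strand), had 22.0, 24.6 and 24.2 RPKM in GFP-hi and 21.9, 21.8 and 23.6 RPKM in GFP-lo libraries. The populations overlapped, and the log2 difference was 0.07 (SE 0.063, 95% interval -0.07 to 0.22, limma adjusted p = 0.59).

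Irf7, the interferon-induced amplifier of the type I response (chr7:141263183-141266499, GRCm38, minus strand), had 33.7, 41.9 and 44.5 RPKM in GFP-hi and 38.7, 39.5 and 44.4 RPKM in GFP-lo libraries. It differed more within the populations than between them, with means of 40.0 ± 5.63 and 40.9 ± 3.08 RPKM (SD, n = 3 per population) and a difference of -0.04 on the log2 scale (SE 0.10, 95% interval -0.28 to 0.20, limma adjusted p = 0.89). Genes known to carry interferon-stimulated response elements moved with it by library. Their summed level over 45 listed genes was 1474, 1539 and 1734 RPKM in GFP-hi and 1461, 1564 and 1798 RPKM in GFP-lo libraries. In each population replicate 3 had both the most Irf7 and the highest sum, and replicate 1 had the least Irf7 and the lowest sum.

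**Figure D3:**
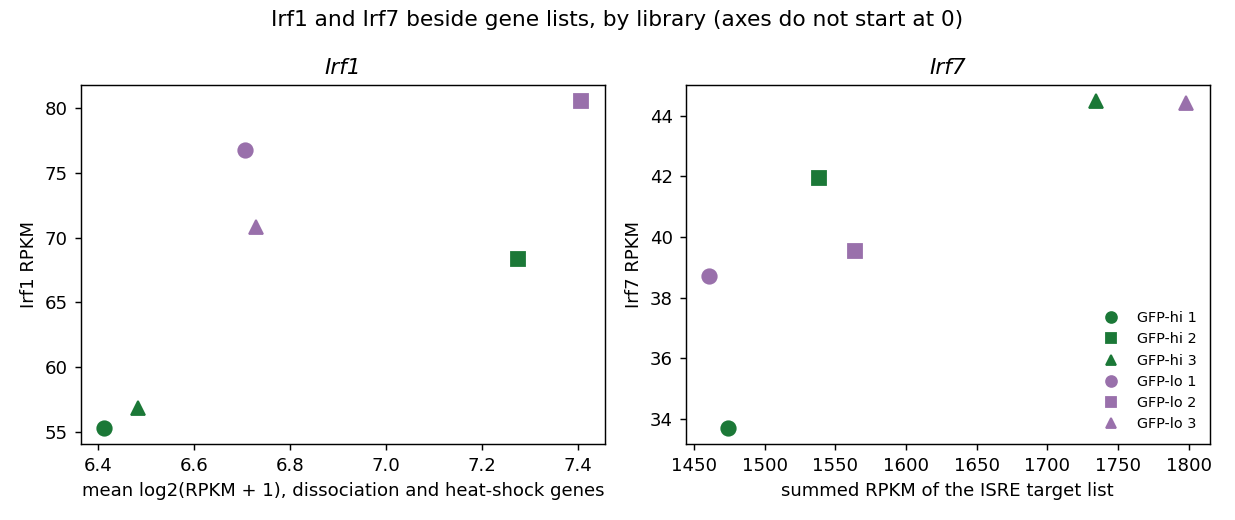
Left, Irf1 RPKM in each library against the mean log2(RPKM + 1) of 23 dissociation and heat-shock genes; right, Irf7 RPKM against the summed RPKM of 45 interferon-stimulated response element targets. Axes do not start at 0; green points are GFP-hi and purple points GFP-lo libraries, and within each population Irf1 on the left is highest in replicate 2, at 68.4 and 80.5, while Irf7 on the right is highest at 44.5 and 44.4 in replicate 3 of each population.

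**Figure D4:**
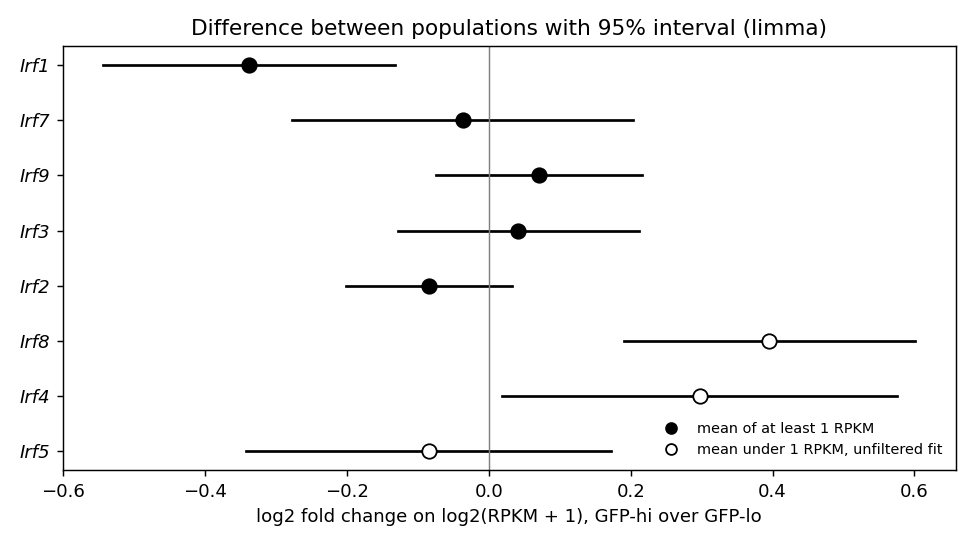
Log2 difference of each member on log2(RPKM + 1), GFP-hi over GFP-lo (horizontal axis), with the 95% interval from limma; filled points are members tested with the filter, and open points are members under 1 RPKM from the unfiltered fit. The intervals of Irf1, Irf4 and Irf8 leave out 0, but none of the 8 passed after adjustment over all genes.

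For 5 members some exon bases overlap an annotated gene nearby in GENCODE M21. These were 135 bases shared by Irf1 with the antisense gene Gm17334, 88 by Irf3 with Bcl2l12, 411 by Irf5 with Tnpo3, 45 by Irf7 with Phrf1 and 123 by Irf9 with Rnf31. Strand use in counting is not given in the sources used here, so reads in these bases may belong to either gene.

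The genes whose pattern over the 6 libraries was closest were found for Irf4 and for the pair of tested members with the lowest adjusted p, as Pearson's r of log2(RPKM + 1), a description over only 6 libraries, which differ in depth and come from both populations. Closest to Irf4 were Mir22hg (r = 0.994), Mcub (0.969) and Trp53inp2 (0.963), among 1040 genes compared. Closest to Irf1 were Rcn3 (r = 0.995), Junb (0.989), which encodes a JUN protein and stood on the dissociation list, and Rrad (0.988). Junb had 542, 750 and 578 RPKM in GFP-hi and 824, 944 and 808 RPKM in GFP-lo libraries, without overlap, and was not called (log2 difference -0.47, limma adjusted p = 0.080). Closest to Irf2 were Fbxl12 (r = 0.978), Gm9833 (0.971) and Rabac1 (0.967). Of these 9 genes Rabac1 alone was called, lower in GFP-hi (log2 difference -0.34, limma adjusted p = 0.040).

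The receptors and relay that act upstream of Irf1 and Irf9 differed at 2 points. Of 16 interferon receptor and JAK-STAT genes, all tested, 0 were higher and 2 lower, against 2.46% and 1.49% of all genes tested. The median log2 difference was -0.04 against 0.02 over all genes tested. An unadjusted p under 0.05 (limma) was reached by 3 of the 16, all lower. Ifngr1, the ligand-binding chain of the interferon gamma receptor, had 48.5, 52.1 and 52.2 RPKM in GFP-hi and 73.4, 73.1 and 77.4 RPKM in GFP-lo libraries. It fell without overlap, by a log2 difference of -0.54 (SE 0.055, limma adjusted p = 0.0024), and it passed in every alternative fit. Socs3, an inducible inhibitor of cytokine receptors that stood on the dissociation list too, fell from 69.5 ± 6.83 RPKM in GFP-lo to 36.5 ± 9.14 RPKM in GFP-hi (SD, n = 3 each, log2 difference -0.93, limma adjusted p = 0.021). Its call was lost on leaving out GFP-hi replicate 3 or any 1 of the GFP-lo libraries, with adjusted p from 0.053 to 0.083 (limma). The second interferon gamma receptor chain, Ifngr2, had 7.27, 9.61 and 7.15 RPKM against 6.79, 8.09 and 7.18 RPKM, and the populations overlapped.

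Upstream of Irf3, Irf5 and Irf7, 20 of 24 sensors, adaptors and kinases were listed and all 20 were tested. None was called in either direction (limma), against 3.95% of all genes tested, and the median log2 difference was -0.06. An unadjusted p under 0.05 was reached by 4, 1 higher and 3 lower. The share of all tested genes under that value was not counted, so no excess is read from the 4 or from such counts on the other lists. The kinase gene Tbk1, whose product phosphorylates IRF3, was nearly level, with 20.7, 21.0 and 21.1 RPKM in GFP-hi and 20.1, 21.1 and 21.2 RPKM in GFP-lo libraries.

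Of 17 partners and corepressors 13 were listed and tested. Of these, 2 were higher and 0 lower, against 2.46% and 1.49% of all genes tested, and the median log2 difference was -0.13. An unadjusted p under 0.05 (limma) was reached by 6 of the 13, 2 higher and 4 lower. Ikzf3, which encodes the zinc finger protein Aiolos, had 14.1, 14.8 and 14.8 RPKM in GFP-hi and 10.4, 9.98 and 9.70 RPKM in GFP-lo libraries and rose by a log2 difference of 0.50 (limma adjusted p = 0.0036). Bcl6, a repressor that can act with Irf4 and Irf8 or against Irf4, rose from 1.51 ± 0.211 to 2.47 ± 0.274 RPKM (SD, n = 3 each, log2 difference 0.47, limma adjusted p = 0.031). The Bcl6 call was lost on leaving out GFP-hi replicate 1 or 3 or GFP-lo replicate 2 or 3, with adjusted p from 0.086 to 0.12, and with the nasal receptor level subtracted, at 0.094 (limma). Batf, the AP-1 partner of Irf4, had 38.9, 43.8 and 41.3 RPKM against 48.0, 44.4 and 43.7 RPKM and was not called (limma adjusted p = 0.31).

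Of 16 tested genes reported downstream of Irf4 in activated T cells, 3 were higher and 0 lower. The shares over all genes tested were 2.46% and 1.49%. The list median was 0.04, and 5 had an unadjusted p under 0.05 (limma), 4 higher and 1 lower. The list was not split by whether Irf4 is reported to raise or lower a gene, so these values give no direction for Irf4. Ikzf2, which encodes the factor Helios, had 3.24, 3.95 and 2.94 RPKM in GFP-hi and 1.05, 1.02 and 1.34 RPKM in GFP-lo libraries (log2 difference 1.03, limma adjusted p = 0.0025). Gzmb, the granzyme of cytotoxic granules, rose from 1.62 ± 0.644 to 3.49 ± 0.292 RPKM (SD, n = 3 each, log2 difference 0.81, limma adjusted p = 0.038). Its call was lost without any 1 of the GFP-hi libraries or without GFP-lo replicate 2, with adjusted p from 0.078 to 0.12, and with a pseudocount of 0.1, at 0.054 (limma). Bcl6 was the third and stood on both lists. Of 17 tested genes that track T-cell receptor signal strength, 2 were higher and 0 lower, against 2.46% and 1.49% of all genes tested. Their median was 0.05, and 6 had an unadjusted p under 0.05 (limma), 5 higher and 1 lower. Tnfrsf9, the costimulatory receptor 4-1BB, had 7.48, 6.45 and 7.37 RPKM in GFP-hi and 1.44, 1.05 and 1.34 RPKM in GFP-lo libraries (log2 difference 1.83, limma adjusted p = 9.7e-05). Cd83, an activation-induced surface protein, rose by 0.53 (limma adjusted p = 0.028), a call lost without any 1 library other than GFP-hi replicate 2, with adjusted p from 0.080 to 0.094 (limma). These lists were drawn up with earlier results of these libraries known, so their directions are not independent evidence about Irf4.

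Targets of the family were read from the same fit. Of 45 genes with interferon-stimulated response elements 43 were tested, and 0 were higher and 0 lower (limma), against 3.95% of all genes called, with a median log2 difference of -0.03. Of these 43, 3 had an unadjusted p under 0.05, a count with no share of all tested genes to set beside it. All 3 were lower in GFP-hi. The widest, Oasl2, which encodes an oligoadenylate synthetase-like protein and was singled out after its values were seen, had 2.88, 3.21 and 4.50 RPKM in GFP-hi and 5.75, 5.74 and 8.90 RPKM in GFP-lo libraries, without overlap (log2 difference -0.78, limma adjusted p = 0.054). Of 34 genes linked to Irf1 and interferon gamma 29 were tested. Of these, 0 were higher and 2 lower, against 2.46% and 1.49% of all genes tested. The median was -0.11 against 0.02 over all genes tested, and 23 of the 29 had a negative value. An unadjusted p under 0.05 (limma) was reached by 5 of the 29, all lower. Gbp2, an interferon gamma-induced GTPase, had 30.3, 33.0 and 33.4 RPKM in GFP-hi and 43.4, 41.4 and 47.2 RPKM in GFP-lo libraries and fell by a log2 difference of -0.44 (limma adjusted p = 0.013). The call was lost narrowly without GFP-hi replicate 1 (limma adjusted p = 0.052) and without GFP-lo replicate 3 (limma adjusted p = 0.053). Cd274, which encodes the checkpoint ligand PD-L1, had 11.6, 12.2 and 13.5 RPKM against 16.2, 14.9 and 17.8 RPKM (log2 difference -0.36, limma adjusted p = 0.049). That call was lost whichever library was left out, with adjusted p from 0.062 to 0.15 (limma). With all 6 libraries it was also lost with a pseudocount of 0.1, no filter, a mean of at least 5 RPKM or no variance trend, with adjusted p from 0.0503 to 0.058 (limma). Without replicate 2 of both populations, Bcl6, Gzmb, Cd83, Gbp2 and Cd274 all missed the threshold, with adjusted p of 0.14, 0.18, 0.069, 0.054 and 0.12 (limma).

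**Figure D5:**
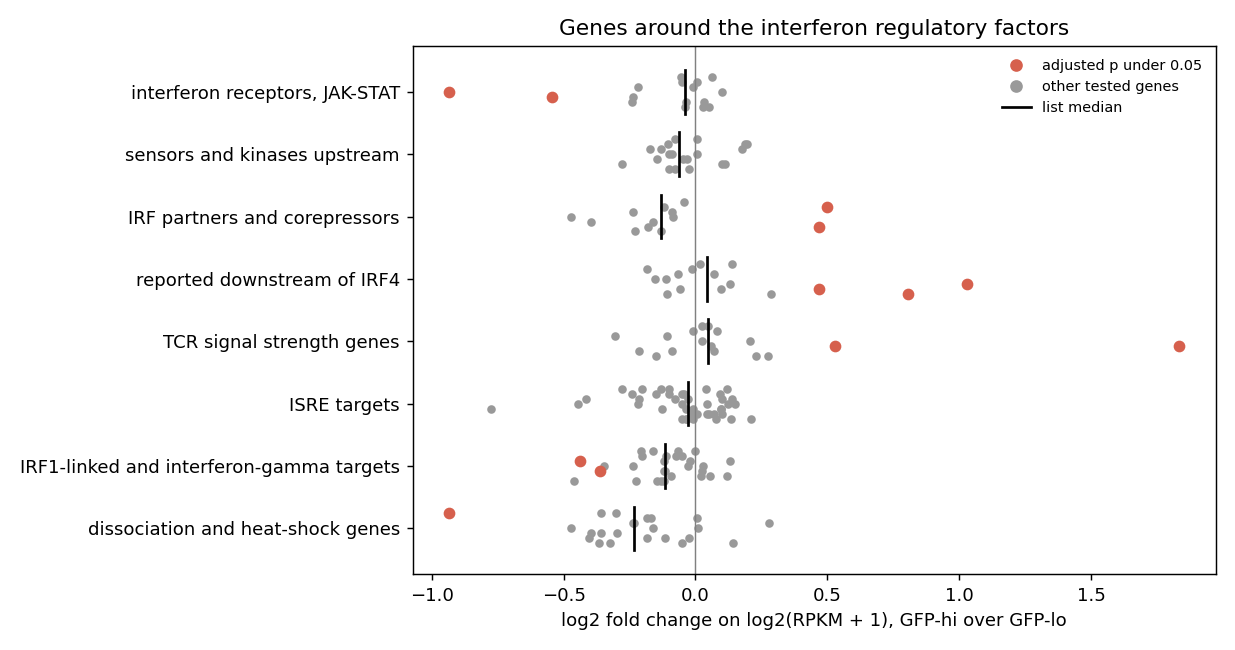
Log2 difference on log2(RPKM + 1), GFP-hi over GFP-lo (horizontal axis), of every tested gene on 8 lists around the family (rows; ISRE stands for interferon-stimulated response element); vertical spread within a row only separates the points. Red points passed an adjusted p under 0.05 in limma and black lines are list medians, which run from -0.23 for the dissociation and heat-shock genes to 0.05 for the T-cell receptor signal strength genes.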

How the data were processed

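RNA from 3 GFP-hi and 3 GFP-lo samples was made into libraries with the SMART-seq v4 and Nextera XT kits, per the labels' protocols. RPKM was the unit the authors deposited, with 1 column for each sample, per the file headers; STAR and mm10 are named in the submitters' processing notes, and the read counter, annotation and gene lengths are not given in the sources used here. Symbols turned into dates or missing (15) were looked up by Entrez ID. Depth was recovered as the library size at which RPKM times length gave whole reads for genes with 1 transcript in GENCODE M21 (87.0% to 91.0% of values within 0.1 of a read, where 20% would lie by width alone). Read counts include PCR copies, so they may overstate the number of RNA molecules counted and understate the counting error.

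Testing used limma 3.58.1 in R 4.3.3 on log2(RPKM + 1); the linear model had no covariate or pairing and eBayes a variance trend, and the fit was tested on simulated data. Figures used matplotlib 3.10.9. The members, gene lists and alternatives were chosen with earlier results of these data known. Besides the members, the text names by rule every gene called on a list, the highest and any called marker of each cell type, and the 3 genes closest in pattern to Irf4, Irf1 and Irf2 among tested genes with an SD of at least 0.2; Ifngr2, Tbk1, Batf, Ms4a1, Flt3 and Zbtb46 were added after their values were seen. Rigi was matched by its older symbol Ddx58. Alternatives changed the pseudocount, filter, scaling, variance model, weights and libraries.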

Additional observations from a re-analysis of the deposited data

How the results depend on the processing

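No paired analysis was possible because the labels and columns carry no replicate numbers that the populations share. Whether libraries were sorted in pairs is not given in the sources used here, and each p-value, that of Irf1 included, treats them as unpaired. The number of genes called over the whole table, 369, was 202 with a mean RPKM of at least 5, 1282 with array quality weights, 799 with the dissociation and heat-shock level as a covariate and 101 without the 2 libraries high in Hspa1a and Hspa1b; leaving out 1 library gave 133 to 315. Among the 5 tested members, the number called, 0, was 1 (Irf1) with quantile normalization, array quality weights and the dissociation and heat-shock covariate. It was 0 to 1 on leaving out 1 library. On the unfiltered fit Irf8 passed with array quality weights (limma adjusted p = 0.011) and without a variance trend (limma adjusted p = 0.037). The Irf3 difference turned negative with array quality weights (-0.0027) and without the 2 libraries high in Hspa1a and Hspa1b (-0.025), and ran from -0.033 to 0.10 on leaving out 1 library. That of Irf7 turned positive with array quality weights (0.026) and ran from -0.12 to 0.080 on leaving out 1 library, and that of Irf5 ran from -0.16 to 0.016. The cause of these changes was not tested. Irf1, Irf2, Irf4, Irf8 and Irf9 kept their sign in each alternative run; for Irf1, Irf2, Irf4 and Irf8, whose populations do not overlap, leaving out libraries could not have changed it. Alternatives for Irf4, Irf5 and Irf8 were run on the unfiltered fit, and these, with the subtraction of the nasal receptor level, were added on seeing the data.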
